A study of Mus musculus with 8 samples.

Results

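Cholesterol synthesis was followed through 8 genes among the 25078 gene rows of the deposited tables, chosen by gene symbol. Hmgcs1, Idi1, Fdps, Fdft1, Sqle, Lss and Cyp51 encode enzymes of the mevalonate and sterol pathway, and Srebf2 encodes the transcription factor that switches this pathway on. The working name of the set also mentions cholesterol uptake, but none of the 8 genes encodes an uptake receptor, so the uptake genes are described with the other pathway genes. All 8 genes were found in every library, and 8 of 8 passed the filter on low counts.

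Messenger RNA had been sequenced in 8 libraries of donor T cells, sorted from recipient spleens 6 days after hematopoietic cell transplantation (HCT), to compare WT with STAT3KO donors. CD4 and CD8 T cells of either genotype made up 4 groups (WT CD4, WT CD8, STAT3KO CD4, STAT3KO CD8) of 2 replicates. The sample labels name the recipients as WT in every library. Per the study's methods, all donors were C57BL/6 mice and all recipients were lethally irradiated BALB/c mice. The recipients also received T cell-depleted bone marrow from WT C57BL/6 donors. STAT3KO donors carried floxed Stat3 alleles and a Cre driven by Cd4 regulatory sequences, which is active in thymocytes before the CD4 and CD8 lineages part, so that STAT3 is lost from T cells of both lineages. The sort took donor-type cells with a T cell receptor. Each library pooled the cells of 3 recipients, so replicates are pools, and the p-values measure only the spread between such pools.

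Cells build cholesterol from acetyl-CoA in a chain of enzymes in the cytosol and endoplasmic reticulum. The first steps, HMG-CoA synthase among them, lead to mevalonate, isomerase and prenyl transferase steps turn it into farnesyl diphosphate, and squalene synthase commits this product to sterols. When sterol is scarce, the SCAP protein escorts SREBP-2, the product of Srebf2, to the Golgi, where proteases free its active part, which raises transcription of the enzymes. Activated T cells are known to raise this program, since dividing cells need sterol for new membrane, and liver X receptors oppose it by driving cholesterol export.

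On the mm10 build, as deposited, the enzymes lie at chr13:119690351-119708260 (Hmgcs1, plus strand), chr13:8885606-8892396 (Idi1, plus), chr3:89093588-89101967 (Fdps, minus), chr14:63145151-63179578 (Fdft1, minus), chr15:59315092-59331193 (Sqle, plus), chr10:76531605-76557139 (Lss, plus) and chr5:4080674-4104697 (Cyp51, minus). Srebf2 lies at chr15:82147269-82204960 on the plus strand. GENCODE M21 annotates all 8 as protein-coding genes, and the counts cover their exons.

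Promoter sequences are shown because SREBP-2 acts on the enzymes through them. RefSeq windows on the GRCm38.p6 build were found for 5 of the 8 genes (Hmgcs1, Lss, Cyp51, Idi1 and Srebf2), and the 250 bases before each gene's start were searched on both strands for the letters TCACCCCA (the core of a sterol regulatory element), CCAAT (the box bound by NF-Y, a partner of SREBP), GGGCGG (the GC box bound by Sp1) and TTCNNNGAA (the core read by STAT proteins). These letters were chosen with the windows in view. Windows of 3 genes are shown, because Hmgcs1 and Srebf2 hold the sterol element core and Lss, called higher in WT CD8 than in WT CD4 T cells, does not. Capitals mark matches of the first 3 motifs on either strand.
Hmgcs1 (chr13:119690101-119690350, plus strand): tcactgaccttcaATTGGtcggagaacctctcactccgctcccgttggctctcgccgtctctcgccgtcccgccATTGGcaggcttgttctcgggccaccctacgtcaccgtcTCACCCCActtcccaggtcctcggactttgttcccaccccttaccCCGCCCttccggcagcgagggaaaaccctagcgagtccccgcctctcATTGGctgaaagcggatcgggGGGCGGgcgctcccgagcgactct
Srebf2 (chr15:82147019-82147268, plus strand): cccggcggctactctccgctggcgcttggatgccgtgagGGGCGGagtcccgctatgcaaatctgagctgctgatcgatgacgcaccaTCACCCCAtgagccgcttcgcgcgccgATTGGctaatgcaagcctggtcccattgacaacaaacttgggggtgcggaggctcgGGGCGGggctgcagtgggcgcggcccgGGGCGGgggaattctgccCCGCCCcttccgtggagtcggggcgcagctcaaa
Lss (chr10:76531355-76531604, plus strand): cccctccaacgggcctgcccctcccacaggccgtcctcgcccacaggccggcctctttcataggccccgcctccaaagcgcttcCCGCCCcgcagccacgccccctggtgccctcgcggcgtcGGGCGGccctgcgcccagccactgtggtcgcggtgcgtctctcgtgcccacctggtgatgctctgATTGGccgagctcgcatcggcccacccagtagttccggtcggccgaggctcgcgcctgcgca
The core TCACCCCA began 137 bases before the start of Hmgcs1 and 162 bases before that of Srebf2. It was present in 1.34% of the 32851 RefSeq windows of this length. CCAAT was present in each of the 5 windows, against 33.9% of all windows, and so was GGGCGG, against 32.7%. No window of the 5 held TTCNNNGAA, which 7.02% of all windows held. These are matches of letters and do not show binding.

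The libraries held between 20171396 and 23282757 counts. Stat3, the targeted gene, had 436 and 428 CPM (counts scaled to a common depth by TMM) in WT CD4 T cells and 138 and 141 CPM in STAT3KO CD4 T cells (log2 fold change -1.63, SE 0.12, adjusted p = 0.000753 by edgeR). The CD8 libraries had 431 and 436 CPM (WT) and 120 and 143 CPM (STAT3KO; log2 fold change -1.72, SE 0.12, adjusted p = 0.00536 by edgeR). Cd4 lay between 1361 and 1602 CPM in the CD4 libraries and between 1.04 and 8.16 CPM in the CD8 libraries. The CD8 genes Cd8a (819 to 984 CPM) and Cd8b1 (900 to 1048 CPM) marked the CD8 libraries, and lay between 1.70 and 36.1 CPM in the CD4 libraries. Of 8 T cell genes, 6 were in the table, and they summed to between 3603 and 4352 CPM by column total. Of 8 macrophage genes, 8 had a count in every library. Their sums were 22.3 and 74.5 CPM (WT CD4), 22.3 and 89.1 CPM (STAT3KO CD4), 42.5 and 144 CPM (WT CD8) and 56.3 and 115 CPM (STAT3KO CD8), with the library numbered 2 higher in each group. The B cell genes summed to between 106 and 171 CPM in CD4 and between 37.5 and 54.9 CPM in CD8 libraries, most of it Cd22, while the defining gene Ms4a1 stayed at or below 0.147 CPM. The hemoglobin genes Hba-a1, Hba-a2, Hbb-bs and Hbb-bt were at 0 in every library, and the erythroid list summed to between 0.892 and 7.70 CPM. The neutrophil list summed to between 3.44 and 22.3 CPM and the hepatocyte list to between 1.89 and 22.96 CPM.

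Srebf2, the regulator, was the most abundant of the 8 genes per exon length. RPKM, the reads per kilobase of exon scaled to sequencing depth, averaged 35.5 for Srebf2 over the 8 libraries (30.0 to 45.5). Hmgcs1, which makes HMG-CoA at the head of the pathway, followed with 17.7 RPKM (13.1 to 21.5), below every Srebf2 value. Cyp51, the demethylase that acts on lanosterol, had 9.31 RPKM (7.87 to 10.4). Its range overlapped with that of Sqle, the epoxidase that makes the first oxygen-dependent step of sterol synthesis (7.43 RPKM, 5.88 to 9.31). Sqle in turn overlapped with Fdft1, squalene synthase (6.56 RPKM, 5.77 to 7.38). Fdps, which makes farnesyl diphosphate, had 3.17 RPKM (2.44 to 4.11) and overlapped with Lss, the cyclase that forms lanosterol (2.44 RPKM, 1.75 to 2.96). Idi1, the isomerase that makes the allylic building block, was lowest with 0.300 RPKM (0.0997 to 0.507), clear of all others.

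**Figure D1:**
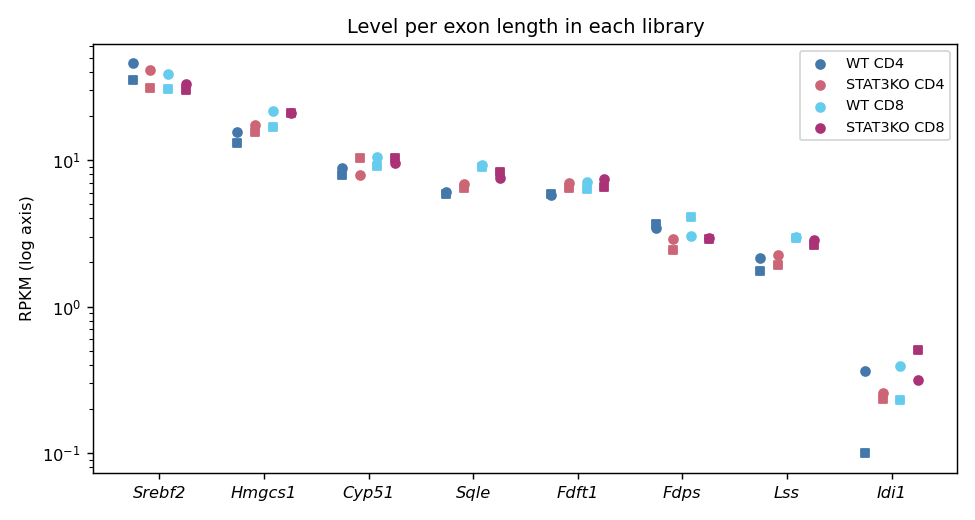
RPKM (log axis) of the 8 genes in each of the 8 libraries, genes ordered by their mean, colours for the 4 groups, circles for replicate 1 and squares for replicate 2. Srebf2 lies between 30.0 and 45.5 RPKM and Idi1 between 0.0997 and 0.507 RPKM, and neighbouring genes from Cyp51 to Fdft1 overlap.

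Counting error was widest for the genes with few reads. Idi1 had 21 and 6 counts (WT CD4), 15 and 15 (STAT3KO CD4), 26 and 16 (WT CD8) and 19 and 33 (STAT3KO CD8), and Fdps had between 80 and 145. The other enzymes had between 233 (Lss) and 1783 (Hmgcs1) counts per library, and Srebf2 between 3109 and 4203. Part of each low count may depend on how reads were assigned, which the sources used here do not fully give. Some 51-base stretches in the GENCODE M21 transcripts of a gene also occur in transcripts of other genes. Their share was 26.1% for Fdps, 25.2% for Idi1 and 26.3% for Fdft1. It was 11.5% for Hmgcs1 (in 114 other genes), 2.7% for Cyp51, 1.82% for Lss, 0.355% for Srebf2 and 0.0179% for Sqle. For Fdps and Idi1 these other genes are predicted genes such as Gm43738 and Gm13502. Fdft1 shares 774 exon bases with Ctsb on the opposite strand, and Ctsb, a cathepsin, had between 392 and 716 CPM. The values of Fdps, Idi1, Fdft1 and Hmgcs1 may depend on this sharing, by an amount that was not tested. Exons of Cyp51 (166 bases, Akap9), Hmgcs1 (557 bases, Gm48342) and Lss (381 bases, 4930483K19Rik) also overlap with a gene on the opposite strand. The same holds for Idi1 (323 bases, Gm48574), and Fdps shares 1124 exon bases with Gm43738 on the same strand. Gm48342, Gm48574 and Gm43738 have no row of their own among the deposited counts.

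Loss of STAT3 was not followed by a called change of any of the 8 genes in CD4 T cells. At an adjusted p under 0.05, the edgeR quasi-likelihood test called 0 of 8 higher or lower, against 11.6% of the 12428 genes tested. An unadjusted p under 0.05 was found for 0 of 8, beside 27.5% of all genes. DESeq2 and the edgeR likelihood-ratio test called 0 of 8 as well. Fitted log2 fold changes lay above 0 for 6 genes and below 0 for 2, with a median of 0.13 beside 0.02 over all genes tested. The groups of 2 libraries did not overlap for 4 of 8 genes (3 higher and 1 lower in STAT3KO), where 53.5% of all genes did not overlap.

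**Figure D2:**
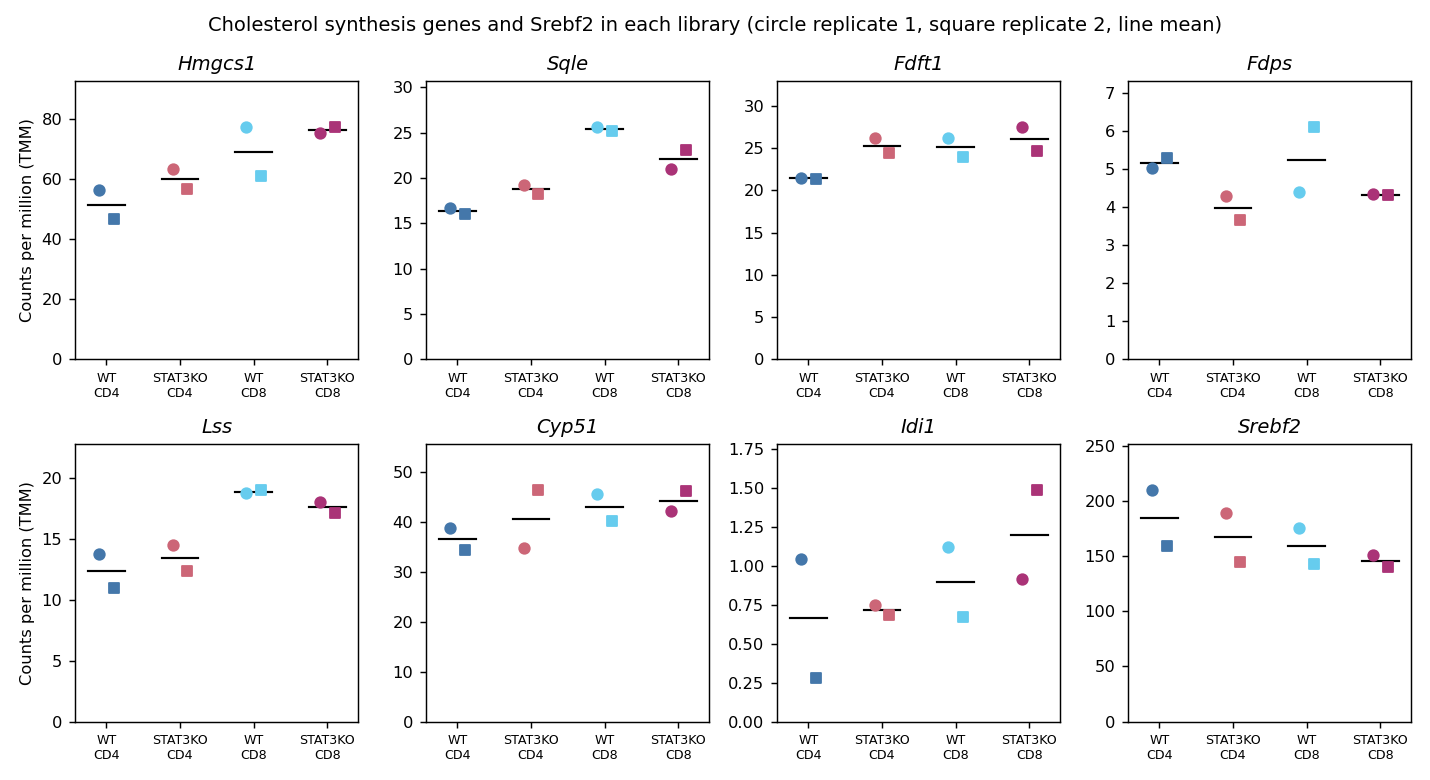
CPM of each gene (vertical axis from 0, TMM-scaled) in the 8 libraries by group, with circles for replicate 1, squares for replicate 2 and a line for the mean. Hmgcs1, Sqle and Lss are higher in both CD8 libraries than in both CD4 libraries of each genotype. In neither lineage was any of the 8 genes called between the genotypes.

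At the head of the pathway, Hmgcs1 had 56.1 and 46.6 CPM in WT CD4 and 63.1 and 56.7 CPM in STAT3KO CD4 T cells. The groups did not overlap, but the gap between them was smaller than that between the replicates of either group, and the log2 fold change was 0.22 (SE 0.15, 95% interval -0.12 to 0.57, adjusted p = 0.390 by edgeR). Fdps was the gene with the lowest fitted value, with 5.04 and 5.29 CPM in WT CD4 and 4.30 and 3.66 CPM in STAT3KO CD4 T cells. Both STAT3KO libraries lay below both WT libraries, yet the log2 fold change of -0.38 had a 95% interval from -0.91 to 0.15 (adjusted p = 0.339 by edgeR). The counts of Idi1 gave an interval from -1.36 to 1.59, which leaves room for changes over 2-fold in either direction.

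Among the sterol steps, Fdft1 had 21.5 and 21.4 CPM in WT CD4 and 26.2 and 24.4 CPM in STAT3KO CD4 T cells. This was the highest fitted change, a log2 fold change of 0.24 (SE 0.11, 95% interval -0.03 to 0.50, adjusted p = 0.230 by edgeR). Sqle had 16.7 and 16.02 CPM in WT CD4 and 19.2 and 18.3 CPM in STAT3KO CD4 T cells, again without overlap (log2 fold change 0.20, SE 0.11, adjusted p = 0.316 by edgeR). Lss, with 13.8 and 11.01 CPM in WT and 14.5 and 12.4 CPM in STAT3KO libraries, overlapped. So did Cyp51, with 38.7 and 34.4 CPM in WT against 34.7 and 46.3 CPM in STAT3KO libraries. Paired by replicate number, the log2 ratios were 0.08 and 0.17 for Lss and -0.16 and 0.43 for Cyp51. Srebf2 had 210 and 159 CPM in WT CD4 and 189 and 145 CPM in STAT3KO CD4 T cells. Its log2 fold change of -0.14 (95% interval -0.57 to 0.29) did not pass the test (adjusted p = 0.686 by edgeR). Paired by replicate number, its log2 ratios were -0.15 and -0.13. With Idi1 left aside, the 95% intervals of the enzymes and of Srebf2 in CD4 T cells reached at most 0.57 upward and -0.91 downward on the log2 scale. The B cell genes did not move together with STAT3 loss in CD4 T cells. Their sum was 106 to 124 CPM in WT and 149 to 171 CPM in STAT3KO libraries, which was mostly Cd22, and Ms4a1 was near 0. Pax5 went the other way, with 16.8 and 9.89 CPM in WT against 0.197 and 0.501 CPM without STAT3 (log2 fold change -5.19, adjusted p = 0.00159 by edgeR). The part of these genes in the values above was not tested.

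The same comparison in CD8 T cells had the same calls, with a median closer to 0. The edgeR test called 0 of 8 genes, against 2.07% of all genes tested. Unadjusted, 0 of 8 had a p under 0.05, beside 19.3% of all genes. DESeq2 called 0 as well. The median log2 fold change was -0.03, beside -0.01 over all genes. For 3 of 8 genes (Sqle, Fdps and Lss) both STAT3KO libraries lay below both WT libraries and for 0 above. Of all genes, 49.7% had groups that did not overlap, and 24.8% had them lower in STAT3KO.

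Sqle had the widest gap of the 3, with 25.6 and 25.1 CPM in WT CD8 and 21.03 and 23.1 CPM in STAT3KO CD8 T cells (log2 fold change -0.20, SE 0.11, 95% interval -0.46 to 0.06, adjusted p = 0.382 by edgeR). Lss had 18.8 and 19.0 CPM in WT CD8 and 18.0 and 17.2 CPM in STAT3KO CD8 T cells, a log2 fold change of -0.10 (95% interval -0.45 to 0.24, adjusted p = 0.786 by edgeR). Fdps had 4.41 and 6.11 CPM in WT CD8 and 4.34 and 4.33 CPM in STAT3KO CD8 T cells, and its separation from WT replicate 1 was within counting error. Hmgcs1 (77.1 and 60.8 CPM in WT, 75.0 and 77.0 CPM in STAT3KO) and Fdft1 (26.2 and 24 CPM in WT, 27.5 and 24.7 CPM in STAT3KO) overlapped. The same held for Cyp51 (45.5 and 40.2 CPM in WT, 42.1 and 46.2 CPM in STAT3KO) and for Srebf2, with 175 and 142 CPM in WT CD8 and 151 and 140 CPM in STAT3KO CD8 T cells. Paired by replicate number, the log2 ratios were -0.22 and -0.021 for Srebf2 and 0.067 and 0.042 for Fdft1. Those of Hmgcs1 and Cyp51 had both signs.

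Whether the STAT3KO effect differed between the lineages was tested as the difference of the log2 fold changes, CD8 minus CD4. The edgeR test called 0 of 8 genes and 0% of all genes. An unadjusted p under 0.05 was found for 1 of 8 genes and for 982 of all genes (7.9%), and DESeq2 called 178 genes and the edgeR likelihood-ratio test 137, with none of the 8 among them. The gene with the unadjusted p under 0.05 was Sqle, whose STAT3KO libraries lay above WT in CD4 and below WT in CD8 T cells (difference -0.40, SE 0.16, 95% interval -0.76 to -0.03, adjusted p = 0.585 by edgeR). For the other genes the difference lay between -0.22 (Lss) and 0.31 (Idi1), with an adjusted p of at least 0.957 by edgeR.

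The lineages were compared within each genotype. In WT donors, CD8 T cells held more Sqle and Lss transcript than CD4 T cells. Sqle rose from 16.7 and 16.02 CPM in WT CD4 to 25.6 and 25.1 CPM in WT CD8 T cells, and Lss from 13.8 and 11.01 to 18.8 and 19.0 CPM. These 2 of 8 genes were called, where 23.8% of all genes were. Since the libraries are bulk samples, more cells with the transcript and more transcript per cell cannot be told apart. For Sqle the log2 fold change was 0.63 (SE 0.11, 95% interval 0.37 to 0.89, adjusted p = 0.00575 by edgeR), and for Lss 0.61 (SE 0.15, 95% interval 0.26 to 0.96, adjusted p = 0.0239 by edgeR). Sqle passed the test under each of the 17 alternatives, with an adjusted p of at most 0.0448. Lss did not pass without WT CD4 replicate 2 (adjusted p = 0.128 by edgeR), WT CD8 replicate 1 (0.101), WT CD8 replicate 2 (0.0891) or STAT3KO CD8 replicate 1 (0.0505), nor in a fit of only the groups compared (0.0684).

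**Figure D3:**
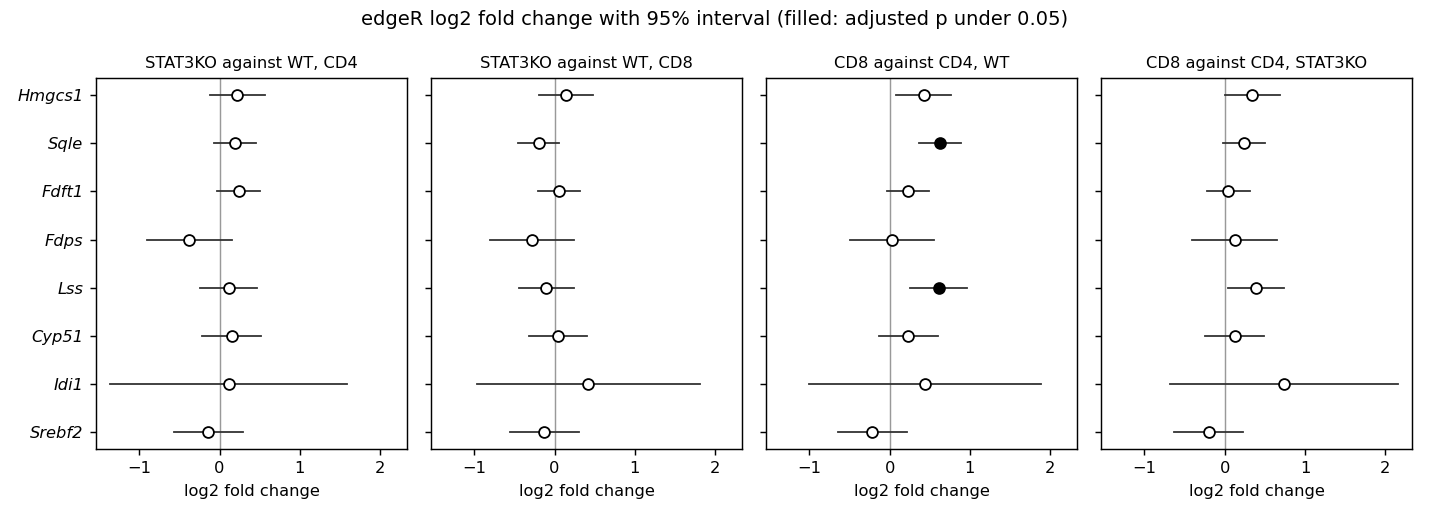
Log2 fold changes (horizontal axis) with 95% intervals from edgeR for the 8 genes in 4 comparisons, filled where the adjusted p was under 0.05. The only filled points are Sqle (0.63) and Lss (0.61) in WT CD8 against WT CD4 T cells, and the interval of Idi1 is the widest in each panel.

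In the same comparison Hmgcs1 had 56.1 and 46.6 CPM in WT CD4 and 77.1 and 60.8 CPM in WT CD8 T cells without overlap, but missed the threshold (log2 fold change 0.43, SE 0.15, adjusted p = 0.0761 by edgeR). With the replicate number as a block it was called (adjusted p = 0.00701 by edgeR), as it was by the likelihood-ratio test (0.0499) and without WT CD8 replicate 2 (0.0481). Fdft1 (log2 fold change 0.23) and Cyp51 (0.23) did not overlap between the lineages either and were not called, with edgeR adjusted p values of 0.198 and 0.340. In all, 5 of 8 genes did not overlap and were higher in CD8. Of all genes, 59.3% did not overlap, and 29.2% did not overlap and were higher in CD8. The median log2 fold change of the 8 genes was 0.33, beside 0.00 over all genes. Srebf2 went the other way and overlapped, with 175 and 142 CPM in WT CD8 against 210 and 159 CPM in WT CD4 T cells. Its log2 fold change was -0.21 (95% interval -0.64 to 0.22, adjusted p = 0.460 by edgeR). With the libraries paired by replicate number, Srebf2 was lower in CD8 in both pairs (log2 ratios -0.26 and -0.16).

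Without STAT3 the same comparison gave smaller fitted values for Sqle and Lss, and no call in the test without a replicate block. The edgeR test called 0 of 8 genes and 12.5% of all genes in STAT3KO CD8 against STAT3KO CD4 T cells. Before adjustment, 2 of 8 had a p under 0.05, beside 27.5% of all genes. Lss had 18.0 and 17.2 CPM in CD8 and 14.5 and 12.4 CPM in CD4 T cells (log2 fold change 0.39, 95% interval 0.04 to 0.74, adjusted p = 0.142 by edgeR). Hmgcs1 had 75.0 and 77.0 against 63.1 and 56.7 CPM (log2 fold change 0.35, 95% interval 0.00 to 0.69, adjusted p = 0.178 by edgeR). With the replicate number as a block, both were called (adjusted p = 0.0400 by edgeR for Lss and 0.0242 for Hmgcs1). Sqle, at 21.03 and 23.1 against 19.2 and 18.3 CPM, had a log2 fold change of 0.24 (95% interval -0.02 to 0.50, adjusted p = 0.221 by edgeR). For 5 of 8 genes the groups did not overlap, each higher in CD8, and the median log2 fold change was 0.18. Of all genes, 58.3% did not overlap in either direction and 29.6% were higher in CD8 without overlap. The WT and STAT3KO comparisons of lineages share no library, and the test of their difference is the one given above for the STAT3KO effects, since both are the same contrast.

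Genes of the cell cycle moved with the lineage in the same libraries. Of 25 proliferation genes, 25 were called higher in WT CD8 than in WT CD4 T cells (median log2 fold change 1.72). In STAT3KO CD8 against STAT3KO CD4 T cells, 17 were called higher (median 0.79). Of all genes, 12.2% (WT) and 5.84% (STAT3KO) were called higher in these comparisons. The proliferation genes also moved with STAT3 loss in CD4 T cells, where 22 of 25 were called higher (median 1.14), beside 6.54% of all genes. The 8 cholesterol genes were not called there. With STAT3 loss in CD8 T cells 0 of 25 were called by edgeR (median 0.26). Of the 25, 10 had an unadjusted p under 0.05, beside 19.3% of all genes. The count called was 9 with the replicate number as a block, 3 with DESeq2 and 1 with the likelihood-ratio test. The count of 17 between the STAT3KO lineages was 25 with the block, 2 without either STAT3KO CD4 library, and 5 and 2 without the STAT3KO CD8 libraries 1 and 2. The count of 22 in CD4 T cells was 14 without WT CD4 replicate 2 or either STAT3KO CD4 library. The summed B cell list, led by Cd22, was lower in CD8 than in CD4 libraries, but Cd79b ran the other way, with 11.9 to 12.8 CPM in CD8 and 0.892 to 2.46 CPM in CD4 libraries. Of the 8 macrophage genes 1, Cd68, was called higher in CD8 T cells of both genotypes (log2 fold changes 1.51 and 1.91). The part that these genes have in the levels of Sqle and Lss was not tested.

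The rest of the pathway was taken from 6 lists with 45 genes, of which 41 were tested. In CD4 T cells without STAT3, 8 of these 41 were called, 4 higher and 4 lower, a share of 19.5% beside the 11.6% of all genes. With the replicate number as a block 13 were called, and without any 1 library between 2 and 6. The calls did not fall together in 1 list or 1 direction.

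**Figure D4:**
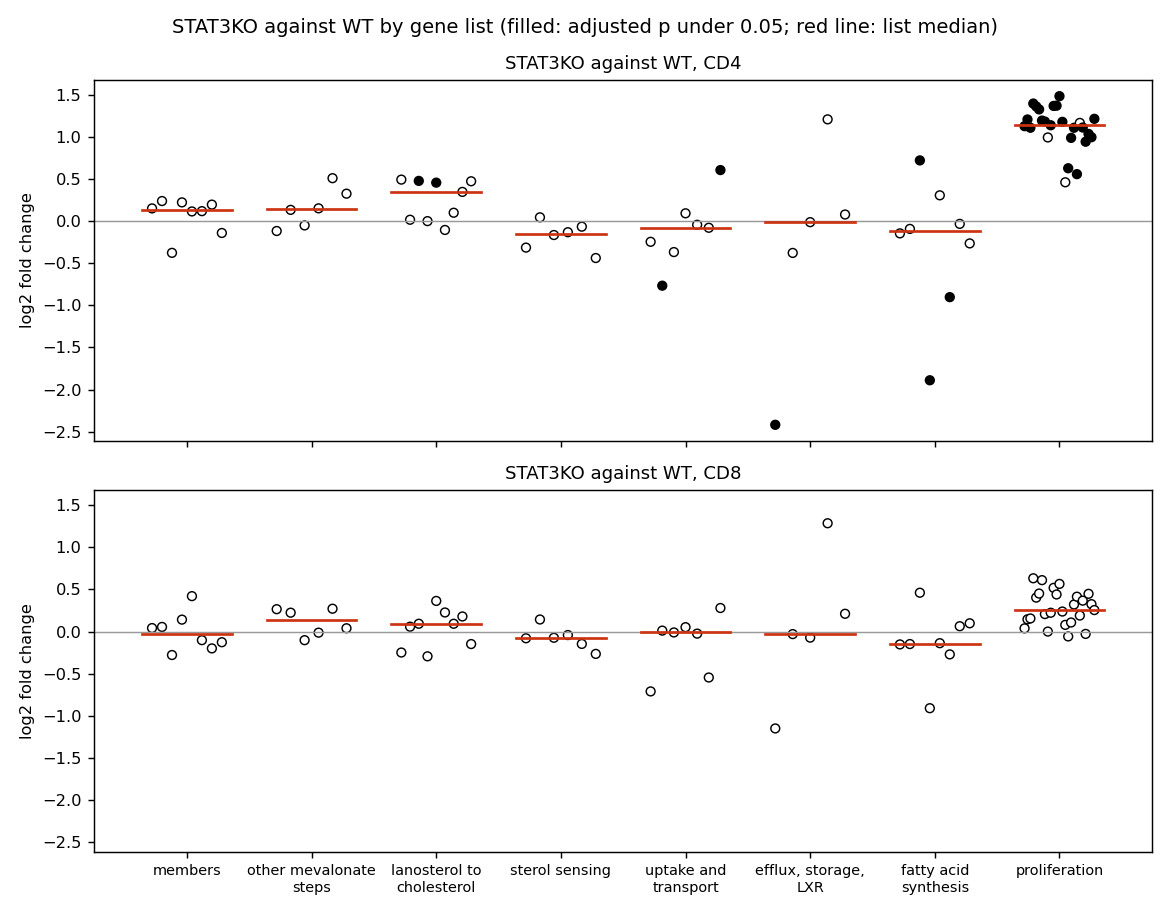
Log2 fold changes (vertical axis) of STAT3KO against WT in CD4 (top) and CD8 T cells (bottom) for each gene of 8 lists, filled where the edgeR adjusted p was under 0.05, with red lines at list medians. The cholesterol genes sit near 0 with medians of 0.13 (CD4) and -0.03 (CD8), and the proliferation genes have medians of 1.14 and 0.26.

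Upstream of the 8 genes and between them, 0 of 6 other mevalonate and isoprenoid genes were called in CD4 T cells without STAT3 (4 above 0, 2 below). Mvk, mevalonate kinase, had the highest value in both lineages (0.51 and 0.27 on the log2 scale), at levels between 2.23 and 4.77 CPM. The lowest in CD4 was Acat2, a thiolase (log2 fold change -0.12).

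Of the 9 other genes between lanosterol and cholesterol, 2 were called higher in STAT3KO CD4 T cells, where the list had a median log2 fold change of 0.35. Lbr, the lamin B receptor that is also a sterol reductase, had 362 and 372 CPM in WT CD4 and 510 and 498 CPM in STAT3KO CD4 T cells (log2 fold change 0.46, SE 0.10, adjusted p = 0.0239 by edgeR). That call was lost without any 1 of the CD4 libraries (edgeR adjusted p from 0.0846 to 0.164) or either STAT3KO CD8 library (0.0529 and 0.0584). Ebp, a sterol isomerase, had 45.8 and 53.8 CPM without and 66.9 and 71.8 CPM with the STAT3 deletion (log2 fold change 0.48, SE 0.12, adjusted p = 0.0434 by edgeR), a call lost without any 1 of the 8 libraries (edgeR adjusted p from 0.0620 to 0.213). Msmo1, a sterol oxidase, had the lowest fitted value (-0.11). Of the same 9, 0 were called in CD8 T cells, with Lbr highest (log2 fold change 0.36, adjusted p = 0.101 by edgeR) and Hsd17b7, a ketoreductase, lowest (-0.29).

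In WT CD8 against WT CD4 T cells, 4 of these 9 genes were called higher and 0 lower, where 12.2% of all genes were called higher. No test set this count against that of the 8 genes. Hsd17b7 (log2 fold change 0.67), Lbr (0.47) and Ebp (0.46) were among them. Lbr (0.37) was also called in STAT3KO CD8 against STAT3KO CD4 T cells.

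The genes that sense sterol and process SREBP did not pass the test in any comparison (0 of 6), although Srebf1 did for STAT3 loss in both lineages with the replicate number as a block. Srebf1, which encodes SREBP-1, had the lowest log2 fold change of this list with STAT3 loss in both lineages (-0.44 in CD4, adjusted p = 0.179 by edgeR, and -0.26 in CD8). Insig2, which holds SCAP in the endoplasmic reticulum, had the highest (0.04 and 0.14).

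Of the 7 tested genes of uptake and transport, 1 was called higher and 1 lower in CD4 T cells with STAT3 loss. Lipa, the lysosomal lipase that frees cholesterol from lipoprotein esters, fell from 106 and 118 CPM in WT CD4 to 65.8 and 65.8 CPM in STAT3KO CD4 T cells (log2 fold change -0.77, SE 0.10, adjusted p = 0.00387 by edgeR), and it was called without each library in turn. Stard4, a carrier of cholesterol between membranes, rose from 74.9 and 74.6 to 114 and 114 CPM (log2 fold change 0.61, SE 0.10, adjusted p = 0.0110 by edgeR). It missed the threshold without WT CD4 replicate 2, STAT3KO CD4 replicate 1 or STAT3KO CD4 replicate 2 (edgeR adjusted p from 0.0646 to 0.0810). Stard4 was also the highest of the list in CD8 T cells (log2 fold change 0.28, adjusted p = 0.193 by edgeR).

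Of 5 tested genes for efflux, storage and liver X receptors, Abca1, the pump that exports cholesterol, was called lower in STAT3KO CD4 T cells. Its libraries held 70.6 and 158 CPM (WT CD4), 17.5 and 25.2 CPM (STAT3KO CD4), 9.21 and 35.0 CPM (WT CD8) and 7.19 and 12.7 CPM (STAT3KO CD8), with the library numbered 2 higher in each group, as were the macrophage sums. The part of macrophage RNA in its level was not tested. The log2 fold change in CD4 T cells was -2.42 (SE 0.63, adjusted p = 0.0469 by edgeR). That call was lost without WT CD4 replicate 2 (-1.73, adjusted p = 0.192 by edgeR), either STAT3KO CD4 library (0.159 and 0.224) or either STAT3KO CD8 library (0.0663 and 0.0678). Abca1 was also the lowest of the list in CD8 T cells (-1.15). Nr1h3, which encodes a liver X receptor and had at most 3.52 CPM, was the highest in both lineages (1.21 and 1.29, with SEs of 1.17 and 1.14). Nr1h3 was higher in the library numbered 2 of each group too, and the part of macrophage RNA in its level was not tested.

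Fatty acid synthesis under SREBP-1 was set beside these genes, and 3 of its 8 tested genes were called in STAT3KO CD4 T cells, 1 higher and 2 lower. Elovl6, an elongase, fell from 31.3 and 40.6 CPM to 8.55 and 10.8 CPM (log2 fold change -1.89, SE 0.25, adjusted p = 0.00389 by edgeR), and was called without each library in turn. Fasn, fatty acid synthase, fell from 230 and 210 CPM to 124 and 111 CPM (log2 fold change -0.90, SE 0.13, adjusted p = 0.00630 by edgeR), and missed the threshold without STAT3KO CD4 replicate 2 (adjusted p = 0.0634 by edgeR). Acss2, which makes acetyl-CoA from acetate, rose from 29.3 and 27.8 CPM to 50.6 and 43.6 CPM (log2 fold change 0.72, SE 0.18, adjusted p = 0.0421 by edgeR). Its call was lost without any 1 of the CD4 libraries (edgeR adjusted p from 0.109 to 0.229) or either WT CD8 library (0.0605 and 0.0657). None of the 41 pathway genes was called by edgeR with STAT3 loss in CD8 T cells. Of the 41, 5 had an unadjusted p under 0.05, beside 19.3% of all genes, and DESeq2 called 2 (Lbr and Elovl6). Elovl6 was the lowest of its list there (-0.91, adjusted p = 0.0969 by edgeR) and Acss2 the highest (0.46, adjusted p = 0.219 by edgeR). With the replicate number as a block, 8 of the 41 were called in CD8 T cells (Lbr, Srebf1, Scarb1, Abca1, Nr1h3, Elovl6 and Acss2 among them), none of them among the 8 cholesterol genes.

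Across the 8 libraries the enzymes did not all vary together. On log2 CPM, Sqle and Lss had a Pearson r of 0.92, Hmgcs1 and Lss 0.84, Hmgcs1 and Idi1 0.83, and Hmgcs1 and Fdft1 0.81. Against the mean of the other 7 genes, Hmgcs1 (0.89) and Lss (0.87) were closest. Fdps (-0.26) and Srebf2 (-0.17) stood apart from the rest when all 8 libraries were pooled. Within each group, Srebf2 was lower in the library numbered 2 than in that numbered 1 (log2 differences from -0.40 to -0.10). Fdft1 was lower there in each group too. Hmgcs1, Sqle and Idi1 were lower there except in STAT3KO CD8, and Lss except in WT CD8. Cyp51 was higher there in both STAT3KO groups, and Fdps in both WT groups. Whether the regulator follows the enzymes within groups was not tested. The correlations describe 8 libraries of 4 groups, and share the group differences, the replicate differences and the scaling.

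The mean of the 8 centred log2 CPM profiles was lowest in WT CD4 replicate 2 (-0.35) and highest in WT CD8 replicate 1 (0.21), and every CD8 library lay above every CD4 library (CD8 0.06 to 0.21, CD4 -0.35 to -0.0035). Idi1, with 6 counts in WT CD4 replicate 2, weighs on this mean: without it that library is at -0.22, and the CD8 libraries at 0.076 to 0.17 still lie above the CD4 libraries at -0.22 to -0.025. Among 8839 other genes whose log2 CPM averaged at least 3, the profiles most like this mean included those of Rgs16 (Pearson r 0.99), Jdp2 (0.97), Ralgapa2 (0.97) and Gemin4 (0.97) over the 8 libraries. This order rests on Idi1 as well: without it, 0 of the 5 nearest genes stayed among the nearest 5, and Rgs16 came at rank 114.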

How the data were processed

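Spleen T cells of 8 pooled libraries in 4 groups were compared. Per the study's methods, the authors aligned 51-base single reads with STAR to mm10 and used HTSeq-count to count reads over RefSeq genes. The strand setting of the counting is not given in the sources used here, and the labels and the methods name different library kits. The deposited counts are raw reads per gene, and the deposited RPKM values are the authors' counts divided by exon length and library size. No deposited column was left without a sample.

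Counts were fitted with edgeR 4.0.16 (R 4.3.3): genes with enough reads for a count of 10 in a group were kept (12428, at least 99.9% of counts), libraries were scaled by TMM (0.982 to 1.03), and group means were compared by the two-sided quasi-likelihood test with Benjamini-Hochberg adjustment at 0.05 over all genes tested. All 8 libraries entered each fit. CPM are scaled by TMM, and marker sums by column totals. Levels between genes were compared in RPKM. The scripts were tested on simulated data. Alternatives used DESeq2 1.42.0, limma 3.58.1 on log2(RPKM + 1) and log2(RPKM + 0.1), other scalings and filters, a replicate block, only the groups compared, and each library left out. Counts of proliferation genes under these alternatives, and the mean profile without Idi1, were added after seeing the data. A floor of 3 counts equals 0.129 to 0.149 CPM and, like the counting errors, covers counting error only.

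The labels give replicate numbers without saying what they share. Differences between replicates correlated between all 6 pairs of groups (r from 0.424 to 0.671 over 12428 genes), so the numbers were taken to pair the libraries. The main tests and the statements on overlap leave this pairing out, since the study's methods name no block. It entered the tests only as the replicate block among the alternatives, which called more of all genes in every comparison.

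The members and gene lists were chosen with earlier results of these data known. Genes named beside the 8 are the targeted gene and coreceptors, pathway genes called in a STAT3KO comparison, the highest and lowest of each pathway list, and the 5 genes with the most similar profile at a mean log2 CPM of at least 3. Some genes that this rule names are not reported here. Hsd17b7, Lbr and Ebp in the comparison of lineages, Ctsb, Akap9, Cd68, Cd22, Cd79b and Pax5 were named after their values were seen.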

Additional observations from a re-analysis of the deposited data

Results flagged for a closer look

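The fitted changes of Sqle with STAT3 loss had opposite directions in the lineages, and neither was called (edgeR adjusted p = 0.316 in CD4 and 0.382 in CD8). Both STAT3KO CD4 libraries lay above both WT CD4 libraries, and both STAT3KO CD8 libraries lay below both WT CD8 libraries. Groups did not overlap for 53.5% (CD4) and 49.7% (CD8) of all genes. The difference of the log2 fold changes, CD8 minus CD4, was -0.40 (SE 0.16), and it did not pass the adjustment over all genes (adjusted p = 0.585 by edgeR).

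The 2 fatty acid genes Fasn and Elovl6 had opposite directions between lineages in the genotypes. Both WT CD8 libraries lay below both WT CD4 libraries, and both STAT3KO CD8 libraries lay above both STAT3KO CD4 libraries. Neither gene was called between the lineages in either genotype. The lineages did not overlap for 59.3% (WT) and 58.3% (STAT3KO) of all genes. The difference, STAT3KO minus WT, was 0.63 for Fasn (SE 0.19, edgeR adjusted p = 0.371) and 0.98 for Elovl6 (SE 0.34, edgeR adjusted p = 0.486). With 2 libraries a group, no library could be examined as an outlier.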

How the results depend on the processing

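None of the 8 cholesterol genes was called with STAT3 loss in either lineage, or for the difference of the effects, under any alternative run. For WT CD8 against WT CD4 T cells the count of 2 became 3 with the replicate block and 1 with only the groups compared, and lay between 1 and 2 when a library was left out. For STAT3KO CD8 against STAT3KO CD4 T cells the block called 2 where the unblocked test called 0. The block, a pairing by replicate number, changed no other call of these genes. Of the 41 other pathway genes, the 8 called in CD4 T cells with STAT3 loss became 13 with the block, 4 with limma on log2(RPKM + 0.1), and between 2 and 6 when a library was left out. In CD8 T cells the count of 0 became 2 with DESeq2, 1 with the likelihood-ratio test, 1 without the filter and 8 with the block. The cause of these shifts was not tested.

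Over all genes, STAT3 loss in CD4 T cells gave 1444 calls, 3747 with the block and between 412 and 1307 without a library. In CD8 T cells 257 became 848 with DESeq2, 815 with the likelihood-ratio test, 454 without the filter, 2258 with the block, 37 with only the groups compared, 109 with limma on log2(RPKM + 0.1), and between 7 and 224 without a library. For the difference of the effects, 0 became 178 with DESeq2, 137 with the likelihood-ratio test, 44 without the filter, 403 with the block, and 5 and 2 with limma (pseudocounts 1 and 0.1), and stayed 0 without any library. For the lineages, 2960 calls in WT became 5232 with the block, 1919 with only the groups compared and between 1546 and 2598 without a library, and 1555 in STAT3KO became 3689 with the block and between 457 and 1554 without a library.

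Signs of uncalled log2 values turned in places. With limma, Fdps in WT CD8 against WT CD4 was -0.0018 (RPKM + 1) and -0.0054 (RPKM + 0.1). Leaving out a library gave these ranges. With STAT3 loss in CD4 T cells, Lss lay between -0.043 and 0.26, Cyp51 between -0.075 and 0.32, Idi1 between -0.55 and 1.30, and Srebf2 between -0.37 and 0.048. In CD8 T cells, Hmgcs1 lay between -0.027 and 0.31, Fdft1 between -0.025 and 0.12, Cyp51 between -0.052 and 0.12, and Srebf2 between -0.28 and 0.023. For the difference of the effects, Hmgcs1 lay between -0.24 and 0.11, Fdps between -0.10 and 0.35, Cyp51 between -0.29 and 0.12, Idi1 between -0.89 and 0.97, and Srebf2 between -0.19 and 0.23. For WT CD8 against WT CD4, Fdps lay between -0.24 and 0.22 and Idi1 between -0.24 and 1.63. For STAT3KO CD8 against STAT3KO CD4, Fdft1 lay between -0.044 and 0.12, Fdps between -0.0062 and 0.25, Cyp51 between -0.071 and 0.33, and Srebf2 between -0.40 and 0.0077. A group left with 1 library was assumed to vary like the others. Depth limits Idi1 and Fdps most.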
